A study of Mus musculus with 8 samples.

Results

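The proteasome subunits described here are the genes whose symbol is Psma, Psmb, Psmc or Psmd followed by a number, without the inducible subunits Psmb8, Psmb9 and Psmb10 and with 1 entry per symbol on a main chromosome. They are 36 of the 50902 genes of the expression table, of which 16 encode subunits of the core (Psma and Psmb) and 20 belong to the cap (Psmc and Psmd). They lie on 16 chromosomes, with 6 of them on chromosome 11. RNA was sequenced from E14 mouse embryonic stem cells (ESCs) kept with LIF and 2i, the inhibitor pair that holds ESCs in ground-state pluripotency. There were 4 libraries of ESC + F/H-BAZ2ArWT (WT) and 4 of ESC + F/H-BAZ2ArΔTAM (ΔTAM), and the question was how expression differs when BAZ2A, a chromatin and RNA-binding protein, lacks its RNA-binding TAM domain. In both lines a Flag/HA-tagged Baz2a transgene that resists the siRNA had been inserted by piggyBac, endogenous Baz2a was targeted with siRNA, and RNA was taken 3 days later. Each line was selected as a clone, so the TAM deletion and the clone cannot be told apart, and because no label states that the replicates were separate cultures, the p-values measure only the spread between these libraries.

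The proteasome degrades proteins that carry ubiquitin chains. Its core is a barrel of stacked rings, with outer α rings that gate the entrance and inner β rings that hold the proteolytic sites. The cap binds to the end of the barrel; its base contains a ring of ATPases that unfold the substrate and scaffold subunits that receive ubiquitin, and its lid removes the ubiquitin chain. Transcription of the subunit genes is known to be raised together by the factor Nfe2l1 when proteasome activity falls, through antioxidant response elements in their promoters, and ESCs are known for high proteasome activity.

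Because the subunit genes are known for shared promoter elements, the promoters of the genes on which the results turn are shown first, from 250 bases before to 50 after the RefSeq start site (RefSeq, GRCm38.p6, 300 bases each). The first 4 hold the letters TGACNNNGC, the core of the antioxidant response element, read on both strands, and the match is in capitals (for Psmd12 and Psmc6 it lies on the other strand, so its reverse complement is seen). The 2 that follow belong to the genes with the largest rises and hold neither this motif nor CCAAT.
Psmb5, chr14:54617946-54618245, minus strand: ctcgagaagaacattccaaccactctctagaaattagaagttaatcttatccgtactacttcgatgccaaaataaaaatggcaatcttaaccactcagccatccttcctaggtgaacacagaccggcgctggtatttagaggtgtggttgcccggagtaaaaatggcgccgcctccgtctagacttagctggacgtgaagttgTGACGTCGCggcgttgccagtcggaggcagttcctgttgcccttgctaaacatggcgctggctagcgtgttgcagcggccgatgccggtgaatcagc
Psmb6, chr11:70525107-70525406, plus strand: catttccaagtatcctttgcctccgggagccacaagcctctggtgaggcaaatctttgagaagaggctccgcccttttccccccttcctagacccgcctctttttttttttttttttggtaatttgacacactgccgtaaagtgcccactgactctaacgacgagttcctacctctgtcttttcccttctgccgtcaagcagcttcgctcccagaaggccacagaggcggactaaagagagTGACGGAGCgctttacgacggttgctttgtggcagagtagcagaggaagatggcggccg
Psmd12, chr11:107479278-107479577, plus strand: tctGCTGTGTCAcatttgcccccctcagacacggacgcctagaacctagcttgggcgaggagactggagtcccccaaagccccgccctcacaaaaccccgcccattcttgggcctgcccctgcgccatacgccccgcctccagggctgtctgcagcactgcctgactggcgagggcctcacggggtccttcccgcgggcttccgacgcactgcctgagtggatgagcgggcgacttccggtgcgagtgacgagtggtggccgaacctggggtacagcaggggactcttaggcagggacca
Psmc6, chr14:45329574-45329873, plus strand: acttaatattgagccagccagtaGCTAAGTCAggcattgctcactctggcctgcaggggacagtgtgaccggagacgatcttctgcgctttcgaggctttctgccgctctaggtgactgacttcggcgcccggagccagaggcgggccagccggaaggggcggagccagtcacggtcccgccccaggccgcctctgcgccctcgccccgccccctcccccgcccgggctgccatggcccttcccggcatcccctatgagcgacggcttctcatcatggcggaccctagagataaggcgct
Psmc5, chr11:106255935-106256234, plus strand: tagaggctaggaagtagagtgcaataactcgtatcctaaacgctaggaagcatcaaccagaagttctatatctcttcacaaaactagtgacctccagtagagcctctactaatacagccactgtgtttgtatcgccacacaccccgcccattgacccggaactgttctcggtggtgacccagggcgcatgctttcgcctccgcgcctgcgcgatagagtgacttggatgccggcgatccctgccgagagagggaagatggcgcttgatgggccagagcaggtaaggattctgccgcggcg
Psmd8, chr7:29180624-29180923, minus strand: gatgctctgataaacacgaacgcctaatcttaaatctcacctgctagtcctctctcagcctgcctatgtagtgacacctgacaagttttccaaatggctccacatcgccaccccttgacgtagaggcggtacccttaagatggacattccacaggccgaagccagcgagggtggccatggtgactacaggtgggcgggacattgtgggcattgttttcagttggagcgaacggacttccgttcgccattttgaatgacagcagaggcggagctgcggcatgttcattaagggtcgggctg

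A promoter was found for 29 of the 36 genes, 31 promoters in all, and none for Psma8, Psmb1, Psmb2, Psmb7, Psmc3, Psmd3 and Psmd7. TGACNNNGC was present in 5 of the 31 (16.1%), against 12.4% of the 32851 promoters in the RefSeq set. These 5 belong to Psmb5, Psmb6, Psmd12, Psmc6 and Psmd9, and among them are genes that rose, the gene that fell and a gene that was too low for the main test. CCAAT, the CCAAT box, was present in 12 of the 31 (38.7%), against 37.4% of all.

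Depth was even between the groups. The WT libraries had 7276522 to 7709135 reads on genes and the ΔTAM libraries 6580845 to 8690066, and mitochondrial transcripts took 2.29% to 2.57% and 2.34% to 2.49% of them. The targeted gene, Baz2a, measured 9.95 to 11.2 RPKM in WT and 17.0 to 18.9 RPKM in ΔTAM (log2 fold change 0.79 ± 0.046 SE, limma, adjusted p = 3.39e-05); transgene and endogenous reads are added in it, so it does not check the deletion. The ESC genes Pou5f1, Nanog, Sox2, Zfp42, Esrrb and Klf4 were expressed in all 8 libraries, with a summed level of 80.5 to 83.3 RPKM in WT and 68.5 to 74.1 RPKM in ΔTAM, without overlap. The members differed: Sox2 (-0.42 on the log2 scale, adjusted p = 6.86e-05), Klf4 (-0.39, adjusted p = 4.46e-05) and Esrrb (-0.20, adjusted p = 0.00176) fell in limma, while Pou5f1 (-0.057), Nanog (0.023) and Zfp42 (0.0045) were not called, and the sum over spans weights the genes unequally. Genes of early differentiation (T, Sox1, Pax6 and Fgf5, the last with 0 reads in each library) summed to 0.774 to 0.815 RPKM in WT and 0.557 to 0.725 RPKM in ΔTAM, those of primitive endoderm and of fibroblasts to at most 0.0359 RPKM in any library, those of trophectoderm to 0.350 to 0.552 RPKM, and the leukocyte marker Ptprc to at most 0.000153 RPKM. The part of these shifts in the results below was not tested. As this is bulk RNA, fewer cells of a kind and less RNA per cell cannot be told apart.

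The deposited RPKM divide by the whole genomic span of a gene, so a level in RPKM can be compared between libraries for 1 gene but not between genes. Differences are therefore given per gene, on the log2(RPKM + 0.1) scale, and levels between genes are given further on per kilobase of exon. The added 0.1 shrinks fold changes more for genes with low RPKM, so fold changes of different genes are not strictly on 1 scale. A gene was tested when its mean over the 8 libraries reached 0.1 RPKM, which 9000 genes did, and it was called at an adjusted p under 0.05 in limma with Benjamini-Hochberg adjustment over all of them. Of the 36 proteasome genes 33 were tested, from 116 to 5405 reads per library. Psma8, Psmb11 and Psmd9 were not.

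More proteasome genes were higher than lower in ΔTAM, and the changes were small. Of the 33 tested genes 15 rose, 1 fell and 17 were not called. Of all genes tested, 19.9% were called higher and 15.9% lower. The fold change was above 0 in 28 of the 33, beside 52.8% of all 9000 genes. Its median was 0.12 on the log2 scale (8.73% in RPKM) and it ran from -0.15 to 0.22, while the median over all 9000 genes was 0.011. In 16 of the 33 every ΔTAM library lay above every WT library, and in 1 every ΔTAM library lay below, against 20.5% and 16.7% of all genes. None of the 33 passed the study's thresholds (0.58 on the log2 scale, p under 0.05) in limma, which 3.79% of all genes did. That share depends on the added 0.1. With 0.01 added, 310 of 9000 genes passed upward and 241 downward, and in voom 656 and 839 of 12658. The paper's own count of genes at these thresholds is larger. At an unadjusted p under 0.05 in limma, 21 of the 33 were higher and 2 lower, against 25.0% and 20.8% of all genes. A voom fit of the reads recovered from the RPKM called 20 of 35 genes higher, all 15 included, and 2 lower, against 21.9% of all genes in each direction. Of the 15 called higher in limma, 7 lost the call in some fits that leave out 1 library: Psma2, Psmb3, Psmb5, Psmc4 and Psmd7 in 6 of 8 fits, Psma7 in 5 and Psmd1 in 3.

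**Figure D1:**
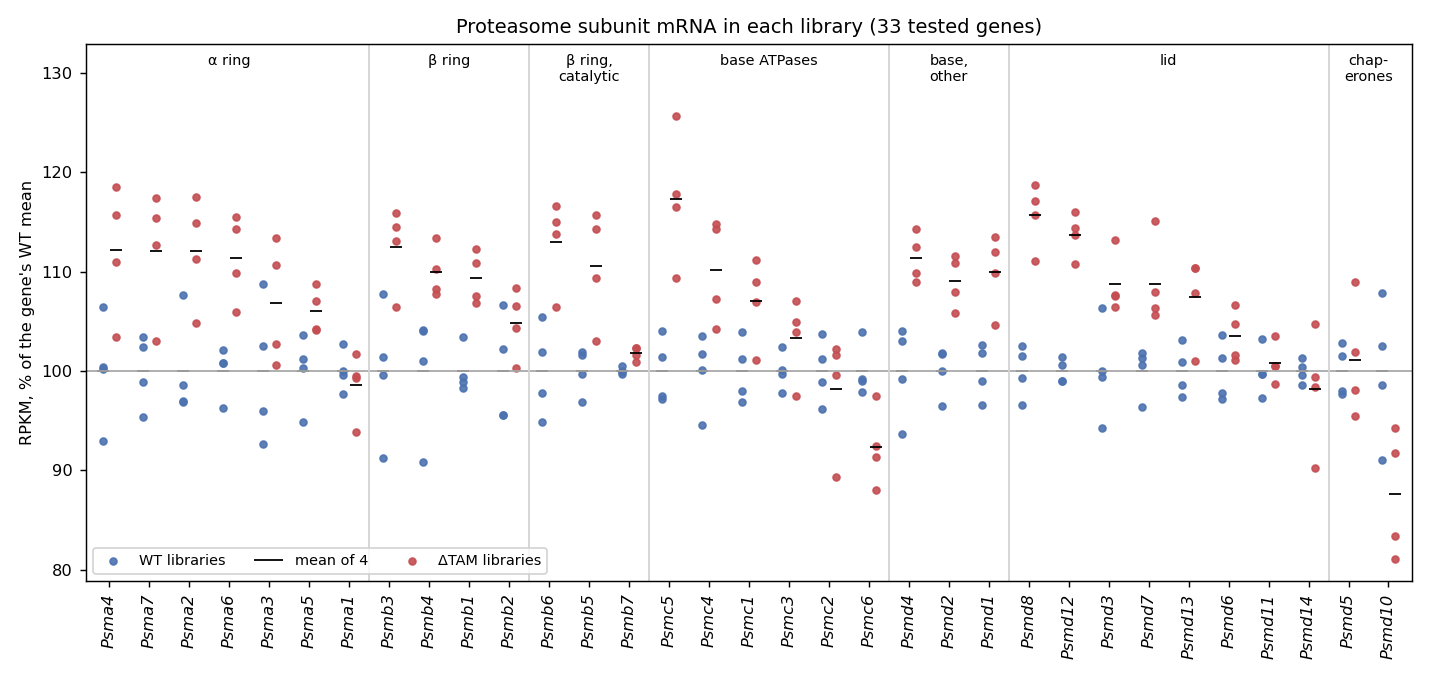
RPKM of the 33 tested subunits in each library, as a percentage of the gene's mean over the WT libraries, grouped by place in the complex. WT is blue and ΔTAM is red. Black lines are the means of the 4 libraries of each group, and the grey line at 100% is the WT mean. Most red points lie above 100%, and those of Psmc6 and Psmd10 lie below it.

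In the core, 7 of 14 tested genes rose and none fell in limma, beside 19.9% and 15.9% of all genes, where at an unadjusted p under 0.05 there were 10 higher and 0 lower, beside 25.0% and 20.8% of all genes (voom 9 higher and 0 lower of the same 14). The median fold change was 0.14 on the log2 scale. In the α ring, which forms the gate of the barrel, Psma2, Psma6 and Psma7 rose and the other 4 were not called. Psma6 measured 0.827, 0.827, 0.837 and 0.790 RPKM in the 4 WT libraries and 0.869, 0.947, 0.937 and 0.901 RPKM in the 4 ΔTAM libraries. All ΔTAM libraries were above all WT libraries, by 0.14 ± 0.033 SE on the log2 scale (limma, adjusted p = 0.0133). Psma2 and Psma7 rose by 0.14 and 0.16, but in each of them 1 ΔTAM library lay within the WT range. Psma4 rose as far in its mean, by 0.16, with an adjusted p of 0.05002 in limma that fell just outside the threshold, and Psma1 had a fold change of -0.020. Exons of Psma4 and Psma5 overlap other genes on the opposite strand (AY074887 and 1700010K24Rik). The library kit was stranded, but the use of strand in counting is not stated, so reads of the partners may be counted in Psma4 and Psma5.

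The β ring holds the 3 proteolytic subunits, and 2 of these rose, beside 19.9% of all genes. Psmb6, which carries the caspase-like activity, measured 12.1, 12.6, 13.1 and 11.8 RPKM in WT and 13.2, 14.3, 14.1 and 14.5 RPKM in ΔTAM. The lowest ΔTAM library, replicate 1, was close to the highest WT library, replicate 3, and the groups did not overlap. The difference was 0.17 ± 0.042 SE on the log2 scale (12.9%, limma, adjusted p = 0.0153). Psmb5, which carries the chymotrypsin-like activity and is the main target of proteasome inhibitors, measured 3.50, 3.44, 3.51 and 3.34 RPKM in WT and 3.55, 3.94, 3.99 and 3.77 RPKM in ΔTAM. Here too the groups stood apart, with ΔTAM replicate 1 just above WT, and the difference was 0.14 ± 0.040 SE (10.6%, limma, adjusted p = 0.0282). Exons of Psmb5 hold Mir686.

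Psmb7, which carries the trypsin-like activity, hardly moved. It measured 0.305, 0.306, 0.305 and 0.307 RPKM in WT and 0.313, 0.311, 0.313 and 0.309 RPKM in ΔTAM. The groups did not overlap, yet the difference was 0.019 ± 0.021 SE on the log2 scale (1.76%, limma, adjusted p = 0.508), and the WT libraries varied by a coefficient of variation of only 0.327%, the smallest among the tested genes and well under their median of 3.01% in WT. Exons of Psmb7 overlap those of Nek6. Of the 4 β subunits without a proteolytic site, Psmb1 (0.12, adjusted p = 0.0108) and Psmb3 (0.17, adjusted p = 0.0390) rose in limma. Psmb4 was higher in every ΔTAM library than in any WT library but had an adjusted p of 0.0529, and Psmb2 (0.061) overlapped between the groups.

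In the cap, 8 of 19 tested genes rose and 1 fell, beside 19.9% and 15.9% of all genes (11 higher and 2 lower at an unadjusted p under 0.05, beside 25.0% and 20.8%, and 11 and 1 in voom), with a median fold change of 0.096 on the log2 scale, or 0.12 without the assembly chaperones, which take no part in the finished complex. The 6 ATPases of the base, which unfold the substrate, held both the gene that fell and the largest rise among the 33, that of Psmc5, while 3 were not called. It measured 4.74, 4.54, 4.86 and 4.56 RPKM in WT and 5.11, 5.51, 5.88 and 5.45 RPKM in ΔTAM. Every ΔTAM library was above the WT range, and the difference was 0.22 ± 0.045 SE on the log2 scale (17.3%, limma, adjusted p = 0.00648). Psmc4 rose by 0.13 (adjusted p = 0.0400), and Psmc1 (0.093), Psmc3 (0.045) and Psmc2 (-0.026) were not called in limma.

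Psmc6, another ATPase of the same ring, was the 1 gene that fell. It measured 1.36, 1.36, 1.34 and 1.42 RPKM in WT and 1.25, 1.21, 1.34 and 1.27 RPKM in ΔTAM. The highest ΔTAM library, replicate 3, and the lowest WT library, also replicate 3, were nearly level, and the other 3 ΔTAM libraries were below all WT libraries. The difference was -0.11 ± 0.035 SE on the log2 scale (-7.67%, limma, adjusted p = 0.0455). This call was close to the threshold, and it was lost in 7 of the 8 fits that leave out 1 library, although the fold change stayed below 0 in each.

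Psmd1, Psmd2 and Psmd4 of the base were called higher, as were 19.9% of all genes. Adrm1, a ubiquitin receptor of the base outside these 36 genes, was not called (0.062 on the log2 scale, limma, adjusted p = 0.366) and overlapped between the groups. Psmd4, a receptor for ubiquitin, measured 2.85, 2.99, 2.96 and 2.69 RPKM in WT and 3.15, 3.23, 3.13 and 3.28 RPKM in ΔTAM. The WT libraries were spread more widely than the ΔTAM libraries, and none reached them (0.15 ± 0.037 SE on the log2 scale, 11.4%, limma, adjusted p = 0.0155). The large scaffold subunits Psmd1 (0.12, adjusted p = 0.0205) and Psmd2 (0.12, adjusted p = 0.0111) rose in limma too, and Psmd2, with 4126 to 5405 reads per library, had the highest read count of these genes. Exons of Psmd1 overlap those of Htr2b and Gm21972.

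In the lid 3 of 8 genes rose and none fell in limma, beside the same 19.9% and 15.9% (5 higher and 0 lower at an unadjusted p under 0.05, beside 25.0% and 20.8% of all genes, and 5 and 0 in voom). Psmd8 measured 6.44, 6.37, 6.24 and 6.06 RPKM in WT and 6.97, 7.26, 7.45 and 7.35 RPKM in ΔTAM. The groups were well apart, with a difference of 0.21 ± 0.030 SE on the log2 scale (15.6%, limma, adjusted p = 0.00156). Psmd12, a structural subunit of the lid, measured 1.16, 1.13, 1.13 and 1.15 RPKM in WT and 1.27, 1.30, 1.33 and 1.31 RPKM in ΔTAM. Its coefficient of variation was 1.19% in WT and 1.91% in ΔTAM, the groups did not overlap, and its adjusted p was the lowest among the proteasome subunits (0.17 ± 0.023 SE on the log2 scale, 13.7%, limma, adjusted p = 0.00108). Psmd7, the partner of the deubiquitinase, rose by 0.12 (adjusted p = 0.0306), whereas the deubiquitinase Psmd14 itself had a fold change of -0.020 (adjusted p = 0.697) in limma. Psmd3 was above WT in every ΔTAM library with an adjusted p of 0.0501. Exons of Psmd3, Psmd13 and, in the base, Psmc3 overlap those of Gm12356, Sirt3 and Slc39a13.

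**Figure D2:**
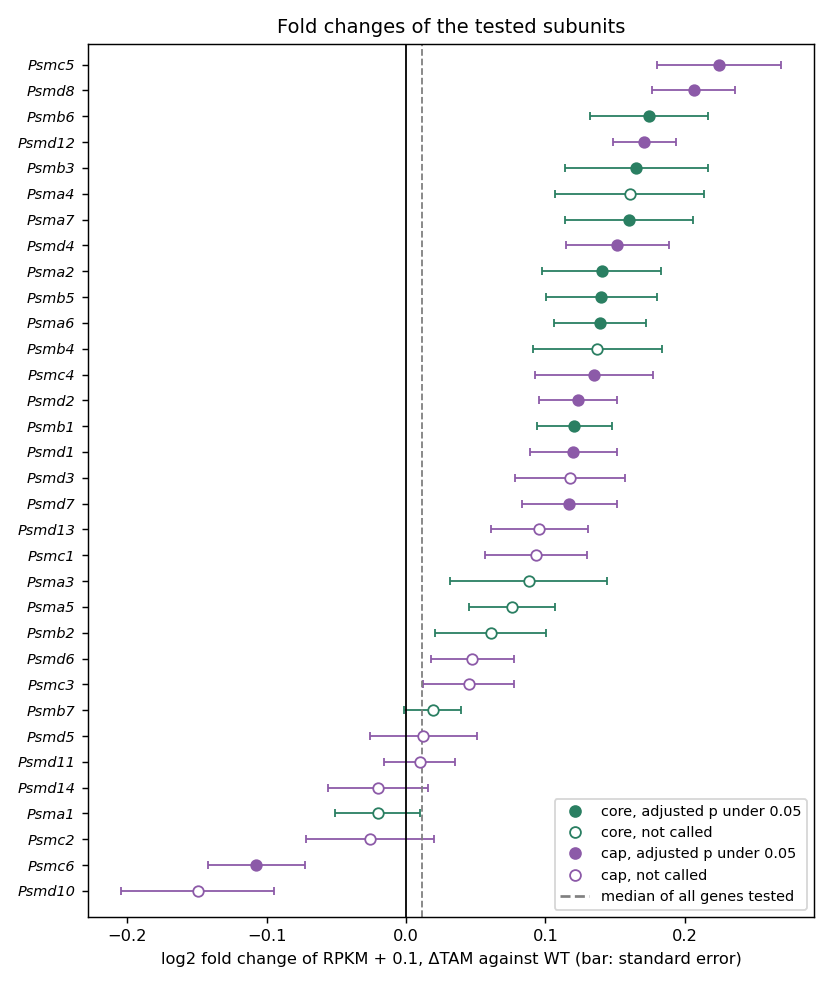
Log2 fold change of RPKM + 0.1 in ΔTAM against WT for the 33 tested subunits, with its standard error (green, core; purple, cap; filled, adjusted p under 0.05 in limma; dashed line, median of all 9000 genes tested). Values run from -0.15 for Psmd10 to 0.22 for Psmc5, and 28 of 33 are above 0, beside 52.8% of all genes tested.

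On the log2(RPKM + 0.1) scale, the genes nearest to no difference came from different places in the complex. Besides Psmb7 they were Psmd11 of the lid and Psmd5, a chaperone that helps to assemble the base. As a percentage of RPKM, which the added 0.1 does not shrink, Psma1 (-1.43%) was nearer to no difference than Psmb7 (1.76%). Psmd11 measured 0.616, 0.601, 0.638 and 0.616 RPKM in WT and 0.621, 0.610, 0.639 and 0.621 RPKM in ΔTAM, a difference of 0.010 ± 0.025 SE on the log2 scale. Psmd5 measured 0.506, 0.481, 0.482 and 0.500 RPKM in WT and 0.483, 0.536, 0.502 and 0.470 RPKM in ΔTAM, a difference of 0.012 ± 0.038 SE. In both genes the groups overlapped, and the sign turns under median-ratio and quantile scaling. The chaperone Psmd10 (gankyrin) had the lowest fold change of the tested genes, -0.15 ± 0.055 SE, with an adjusted p of 0.0683 in limma and groups that overlap. No gene of the 2 assembly chaperones tested was called in limma, beside 19.9% of all genes higher and 15.9% lower, and at an unadjusted p under 0.05 0 were higher and 1 was lower, beside 25.0% and 20.8% of all genes; voom called 0 of them, beside 21.9% in each direction.

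The 3 genes that did not pass the filter are the least typical of the 36. Psma8 and Psmb11 are not constitutive subunits in the sense of the name: Psma8 replaces Psma7 in the testis and Psmb11 replaces the proteolytic β subunit in the thymic cortex. Psmb11 had 0, 0, 0 and 1 reads in WT and 0, 1, 0 and 2 reads in ΔTAM, at or under 3 reads in each library, which for this gene is 0.00636 to 0.00843 RPKM, and no fold is given. Its neighbour on chromosome 14, Psmb5, had 627 to 855 reads.

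Psma8 was not absent. It had 222, 217, 211 and 271 reads in WT and 156, 175, 198 and 218 reads in ΔTAM, and failed the filter because its long span lowers its RPKM (0.0813 ± 0.00835 in WT and 0.0664 ± 0.00397 in ΔTAM, SD, n = 4). Per kilobase of exon its level was 12.3 in WT, against 50.2 for Psma7, which it resembles in sequence, so reads could be shared between them. In RPKM every ΔTAM library lay below every WT library, and voom, which tested it, gave -0.29 ± 0.085 SE on the log2 scale (adjusted p = 0.00858). Psmd9, an assembly chaperone whose exons overlap 1849 bases of Gm26745, had 153, 191, 191 and 133 reads in WT and 110, 149, 176 and 156 reads in ΔTAM. Its groups overlapped (voom, -0.16, adjusted p = 0.303).

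The libraries of 1 condition did not rise by the same amount. The median over the 33 genes of the difference from the WT mean on the log2 scale was 0.0024, 0.011, 0.026 and -0.043 in WT replicates 1 to 4, and 0.054, 0.15, 0.14 and 0.099 in ΔTAM replicates 1 to 4. All ΔTAM libraries were above all WT libraries, with replicate 1 the nearest, while the same median over all genes stayed between -0.013 and 0.017. For the core alone the groups also stood apart, whereas for the cap alone ΔTAM replicate 1 (0.016) lay below WT replicate 3 (0.025). In ΔTAM replicates 1 to 4, 26, 29, 30 and 27 of the 33 genes were above their WT mean. The same count over all genes was not made. WT replicate 4 and ΔTAM replicate 1 stood furthest from their groups. Without both, 16 of the 33 genes were higher and 0 lower, beside 1528 and 1296 of 8982 genes. The calls of Psmc6 and Psmd7 were lost in that fit. As a share of all reads on genes, all 36 transcripts took 0.634% ± 0.0120 in WT and 0.682% ± 0.0166 in ΔTAM (SD, n = 4), with ranges of 0.618% to 0.645% and 0.659% to 0.694% that do not overlap.

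**Figure D3:**
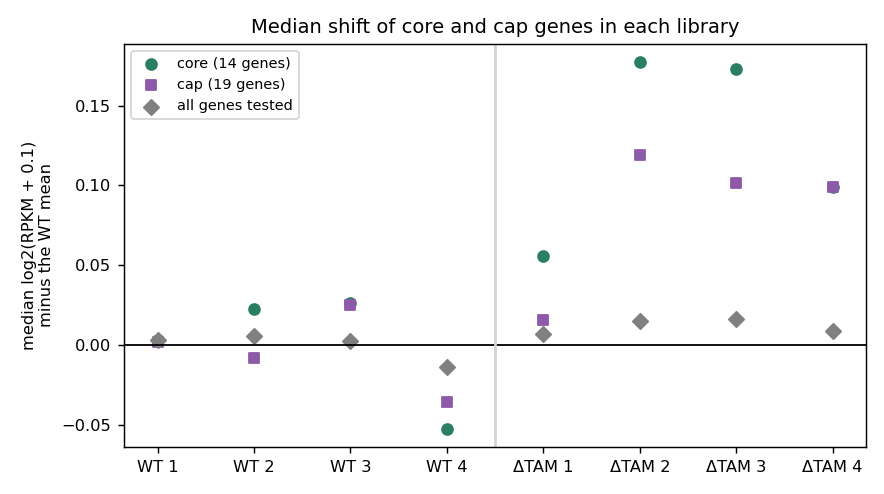
Median difference from the WT mean, log2(RPKM + 0.1), of the 14 core genes (green circles), the 19 cap genes (purple squares) and all 9000 genes tested (grey diamonds) in each of the 8 libraries. Core and cap are higher in each ΔTAM library than all genes together, WT replicate 4 is the lowest, and the cap median of ΔTAM replicate 1 (0.016) is below that of WT replicate 3 (0.025).

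Core and cap were then compared within each library by the ratio of their reads per kilobase of exon, summed over the 14 core genes and over the 19 cap genes. The ratio was 0.888, 0.913, 0.892 and 0.875 in the WT libraries and 0.899, 0.915, 0.888 and 0.891 in the ΔTAM libraries. The means, 0.892 ± 0.0158 and 0.898 ± 0.0118 (SD, n = 4), differed by 0.011 on the log2 scale, less than the pooled SD of 0.022 between libraries, and the groups overlapped. The difference rests on single libraries, from 0.0014 without WT replicate 4 and 0.0020 without ΔTAM replicate 2 to 0.022 without WT replicate 2. By counts, 7 of 14 core genes and 8 of 19 cap genes were called higher, beside 19.9% of all genes. Over the fits that leave out 1 library the core count ran from 3 to 7, beside 1440 of 8974 to 1713 of 8972 genes. The absolute ratio rests on the genes and on the exon length that are used. The length of the APPRIS principal transcript is known for 30 of the 33 genes, and the 3 without it, Psmd4, Psmd8 and Psmd10, are all of the cap. Over these 30 genes, a choice made after seeing the data, the ratio was 1.03 in WT and 1.04 in ΔTAM with the exon length as before (a difference of 0.018 on the log2 scale, pooled SD 0.024). With the APPRIS length it was 1.18 and 1.20 (a difference of 0.030, pooled SD 0.023), and the groups overlapped in both. A difference in the change of core and cap was not resolved in these 8 libraries.

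Levels of different genes were compared in WT as reads per kilobase of exon, scaled to the library's reads on genes (the scale of RPKM with exon length). They spanned 13.6-fold, from 157 ± 5.04 for Psmc5 to 11.5 ± 0.319 for Psmd5 (SD, n = 4). Psmc5 and Psma6 (152 ± 3.48) overlapped in the first places, followed by Psmd2 (143 ± 3.13) and Psmb2 (123 ± 6.36), each apart from the next. This order depends on the length: with the APPRIS length, over 30 genes, Psmb6 (259) and Psmb3 (223) came first, and Psmd2 (195) and Psma6 (181) were above Psmc5 (166). Psmb4 and Psmb6 (both 111) overlapped. At the lower end Psmb7 (33.6), Psmd11 (28.9), Psmd10 (14.9) and Psmd5 (11.5) were each apart from the next. Of the 32 pairs of neighbours in this order 11 were apart and 21 overlapped. Psmb5 (100) and Psmb6 (111) were about 3 times as high as Psmb7 by this measure, but exons of rare isoforms enter the length, and with the APPRIS length the values were 100, 259 and 99.1.

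**Figure D4:**
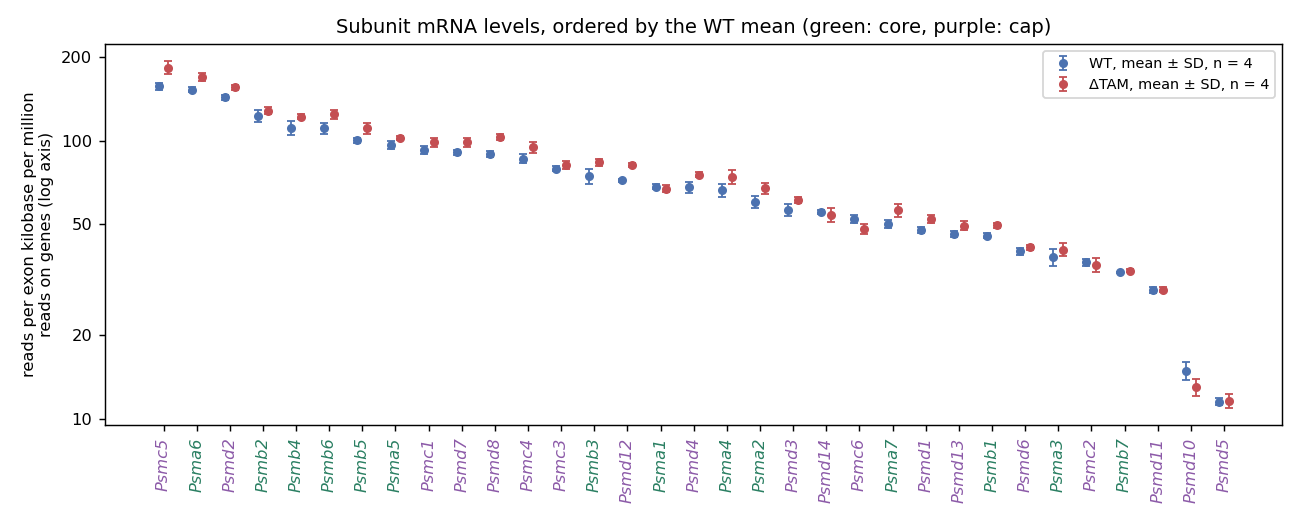
Reads per kilobase of exon, scaled to the library's reads on genes, on a log axis, for the 33 tested subunits in order of the WT mean (blue, WT; red, ΔTAM; mean ± SD, n = 4 libraries). The WT levels run from 157 for Psmc5 to 11.5 for Psmd5, and 2 assembly chaperones stand at the low end.

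Other genes of the pathway were taken as a list of 38, of which 37 were in the table, without Paaf1 (Ecpas is named AI314180 there), and 34 were tested. Of these 6 rose, 3 fell and 25 were not called, again beside 19.9% and 15.9% of all genes, and their median fold change was 0.029 on the log2 scale. Among the activators of the core, Psme2 rose and Psme4 fell. Psme2, a subunit of the interferon-inducible activator ring, measured 3.79, 4.07, 3.63 and 3.63 RPKM in WT and 4.75, 5.50, 5.32 and 5.62 RPKM in ΔTAM. The groups were far apart, with a difference of 0.48 ± 0.060 SE on the log2 scale (40.2%, limma, adjusted p = 8.53e-04). Its partner Psme1 was not called (0.089, adjusted p = 0.333).

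Psme4, a nuclear activator that opens the core without ubiquitin, measured 0.653, 0.677, 0.668 and 0.715 RPKM in WT and 0.566, 0.491, 0.549 and 0.538 RPKM in ΔTAM. Every ΔTAM library was lower, and the difference was -0.29 ± 0.044 SE on the log2 scale (-21.0%, limma, adjusted p = 0.00176). The inhibitor Psmf1 fell by 0.18 in limma (adjusted p = 0.0305), where voom gave -0.27, with ΔTAM replicate 4 within the WT range. The ubiquitin shuttle Ubqln1 fell by 0.091 (adjusted p = 0.0241, limma). The deubiquitinase Usp14 and the zinc finger protein Zfand5, which both bind the proteasome, rose by 0.18 (adjusted p = 0.00901) and 0.17 (adjusted p = 0.0340) in limma. Leaving out 1 library ended the call of Zfand5 in 7 of 8 fits, of Psmf1 in 6 and of Ubqln1 in 4. Zfand2a, a stress-induced protein that binds the cap, measured 0.308, 0.272, 0.309 and 0.328 RPKM in WT and 0.368, 0.414, 0.369 and 0.387 RPKM in ΔTAM, which did not overlap (0.26 ± 0.051 SE, 26.3%, limma, adjusted p = 0.00594). In voom the rise of Zfand2a was 0.34.

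Among the regulators, the transcription factor Nfe2l1 showed no call. It measured 4.34, 4.38, 4.27 and 4.20 RPKM in WT and 4.13, 4.24, 4.29 and 4.30 RPKM in ΔTAM (-0.019 ± 0.024 SE on the log2 scale, limma, adjusted p = 0.560). The protease that cleaves it into its active form, Ddi2, measured 0.276, 0.247, 0.273 and 0.274 RPKM in WT and 0.364, 0.344, 0.349 and 0.36 RPKM in ΔTAM. The groups were far apart (0.31 ± 0.034 SE, 32.4%, limma, adjusted p = 4.66e-04). Nfe2l2, the related factor of the oxidative stress response, measured 0.659, 0.698, 0.708 and 0.687 RPKM in WT and 0.777, 0.817, 0.808 and 0.800 RPKM in ΔTAM, again without overlap (0.19 ± 0.028 SE, 16.3%, limma, adjusted p = 0.00165). RNA levels say nothing of the processing or location of these factors.

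The inducible subunits, which replace the proteolytic ones in immune cells, were low. Psmb8 had 1 read in ΔTAM replicate 4 and 0 reads in each of the other libraries, where 3 reads is the limit that a count of 0 allows. Psmb9 had 6 to 13 reads in WT and 4 to 12 reads in ΔTAM, which overlapped. Psmb10 had 60, 60, 67 and 33 reads in WT and 48, 49, 66 and 75 reads in ΔTAM; WT replicate 4 was the lowest, the groups overlapped and the difference was 0.11 ± 0.17 SE on the log2 scale (limma, adjusted p = 0.649).

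**Figure D5:**
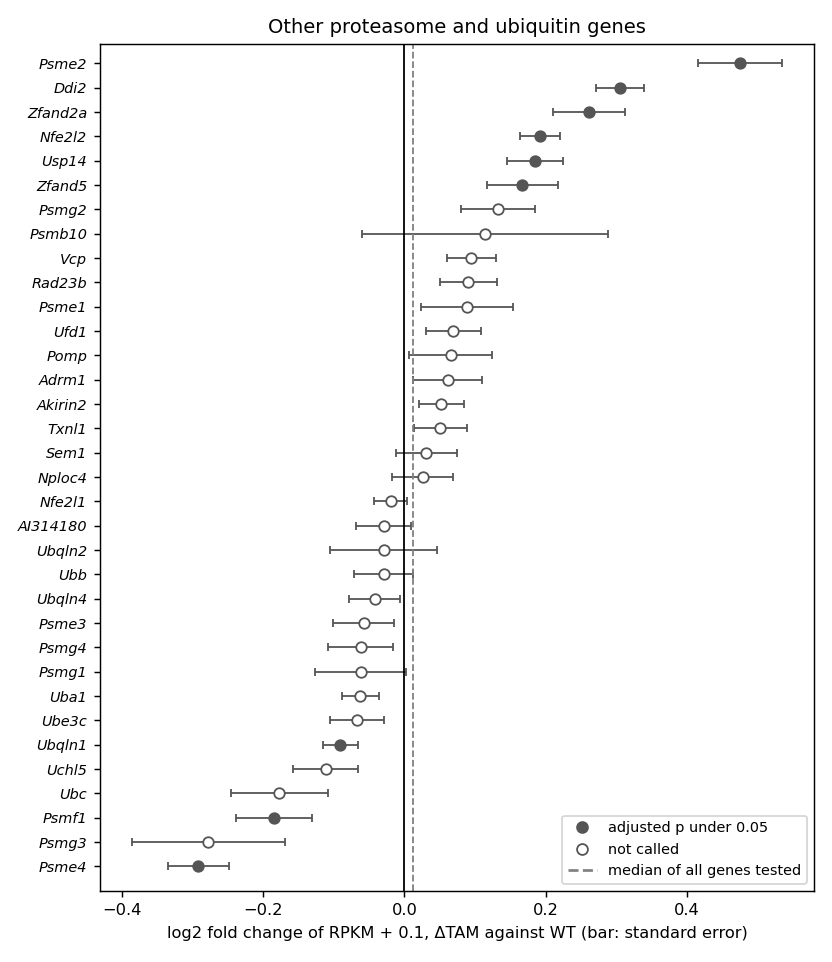
Log2 fold change of RPKM + 0.1 in ΔTAM against WT for the 34 tested genes of the pathway outside the constitutive subunits, with its standard error (filled, adjusted p under 0.05 in limma; dashed line, median of all 9000 genes tested). Psme2 (0.48) and Ddi2 (0.31) are highest and Psme4 (-0.29) is lowest.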

How the data were processed

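PolyA RNA of 8 ESC libraries was sequenced single end. The authors removed ribosomal reads, trimmed with Trimmomatic (0.36 in the submitters' processing notes) and mapped with STAR to mm10. They deposited RPKM per gene and library from exon coverage, without pooling replicates. The library kit was stranded (TruSeq Stranded mRNA), but the annotation release and the use of strand in counting are not given in the sources used here. RPKM times the genomic span came in whole reads (within 0.05 reads) for 99.5% to 99.6% of values, so reads were recovered. Of 51288 entries, 386 repeats of a symbol were set aside. No 2 libraries held the same values. Depth is given with the results.

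Groups came from the sample titles. log2(RPKM + 0.1) was fitted, for genes averaging 0.1 RPKM or more, with limma 3.58.1 (R 4.3.3, eBayes with trend) on both groups without covariates, with Benjamini-Hochberg adjustment over 9000 genes. The fit was tested on simulated data. Summaries and figures used Python 3.11.15, pandas 2.3.3 and matplotlib 3.10.9. Exon lengths came from GENCODE vM21, with which 90.3% of entries share symbol and coordinates; coordinates are mm10. The genes, the list of other proteasome genes, the motifs and the tests were chosen with earlier results of these data known. Named were: up to 6 called genes per direction with the largest change and no overlap, Psmb5, Psmb6 and Psmb7, the genes below the filter, the 3 nearest to no change, the inducible subunits, Nfe2l1, Nfe2l2, the 4 other genes with the largest called change, and Baz2a; further genes were named after their values were seen. Another gene of the list is not reported here. Alternatives were other pseudocounts, filters, scalings, variance settings, a replicate block, voom on recovered reads, all repeated entries kept, other exon lengths and leaving out each library.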

Additional observations from a re-analysis of the deposited data

Results flagged for a closer look

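Within a group of 4 libraries, 8 of 146 groups examined had 1 library far from the other 3, measured as its gap to the nearest library divided by the whole range; chance alone gives about 5%. Among the proteasome subunits, Psma2 in WT had replicate 3 highest (0.583 RPKM against 0.525 to 0.534, gap share 0.842) and Psmd3 in ΔTAM had replicate 2 highest (3.52 RPKM against 3.32 to 3.35, gap share 0.830). Psmb11 in WT had its only read in replicate 4 (gap share 1). Among the other genes of the pathway, Psmb8 in ΔTAM had its only read in replicate 4 (gap share 1), Psmf1 in ΔTAM was highest in replicate 4 (0.209 RPKM against 0.168 to 0.170, gap share 0.955) and Psmg3 in ΔTAM was highest in replicate 2 (0.464 RPKM against 0.325 to 0.329, gap share 0.967). In WT replicate 2, Ddi2 (0.247 RPKM against 0.273 to 0.276, gap share 0.873) and Ngly1 (0.0108 RPKM against 0.0154 to 0.0155, gap share 0.986) were lowest.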

How the results depend on the processing

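Of the 15 subunits that rose, 8 were called in each fit without 1 library (Psma6, Psmb1, Psmb6, Psmc5, Psmd2, Psmd4, Psmd8 and Psmd12), and 26 of 33 kept a fold change above 0 in each alternative. Neither count was made over all genes. The number called higher ran from 8 to 17 over the fits without 1 library. It was 9 without WT replicate 1, 9 without ΔTAM replicate 2 and 8 without ΔTAM replicate 3. In these fits, 1440 of 8974 genes (without ΔTAM replicate 3) to 1713 of 8972 (without ΔTAM replicate 1) were higher. With no filter 9 subunits were higher, beside 1941 of 25439 genes. The number called lower ran from 0 to 1 over the fits without 1 library, beside 1137 of 8997 to 1387 of 8993 genes. It was 0 with no filter (1817 of 25439 genes), without the trend (1455 of 9000) and with the replicate block (1239 of 9000). It was also 0 without both WT replicate 4 and ΔTAM replicate 1 (1296 of 8982 genes), a choice made after seeing the data. It was 2 with quantile normalization (1722 of 9000 genes) and with voom (2773 of 12658). Core calls numbered 3 with no filter and 3 to 7 without 1 library, beside the counts of all genes given above for these fits. The core median was 0.074 with a pseudocount of 1 RPKM, which shrinks low values by construction. With a filter of 1 RPKM 1 of the other proteasome genes was called, as fewer genes were tested. Of all 2148 genes at this filter, 590 were called higher and 399 lower. The replicate block gave 12 subunits higher, 6 of them in the core, beside 1557 of 9000 genes. Psmb3, Psmb5, Psmd1 and Psmd4, and the lower call of Psmc6, were lost and Psmb4 was gained. Same-numbered libraries correlated by only 0.024 to 0.062, yet 6 of 8 correlated best with their own number. These values do not settle whether the numbers pair the libraries, and the main fit does not pair them.

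Signs turned only for genes that were not called. Median-ratio scaling gave -0.0028 for Psmd11 and -7.1e-05 for Psmd5, and quantile normalization -0.016 for Psmd11 and -0.011 for Psmd5. Without both WT replicate 4 and ΔTAM replicate 1, Psma1 was 0.00068, Psmd14 0.013 and Psmb10 -0.031. Over the fits without 1 library, the fold change ran from -0.035 to 0.0023 for Psma1, from -0.045 to 0.016 for Psmc2, from -0.0014 to 0.023 for Psmd11, from -0.043 to 0.0083 for Psmd14, from -0.018 to 0.035 for Psmd5, from -0.070 to 0.21 for Psmb10, from -0.082 to 0.029 for Ubqln2, from -0.050 to 0.0049 for Ubb, and from -0.0023 to 0.047 for Nploc4. Median-ratio scaling gave a median of 1.4e-05 over all genes and quantile normalization -0.0093, against 0.011 in the main fit. Under these scalings the core median was 0.12 and 0.10 (0.14 in the main fit) and the cap median 0.082 and 0.068 (0.096). With each scaling 16 subunits were called higher. Of all 9000 genes, 1667 were then higher and 1597 lower with median-ratio scaling. With quantile normalization these were 1568 and 1722, against 1790 and 1435 in the main fit. The cause of these changes was not tested. Depth limits Psmb8, Psmb9 and Psmb11, and 116 reads was the lowest count of a tested subunit.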
